A study of Mus musculus with 13 samples.

Results

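Ceruloplasmin (Cp) and 7 further genes of cellular iron handling were followed in nuclei of mouse heart muscle after delivery of the human progesterone receptor, a transcription factor switched on by a steroid hormone. The genes were taken by symbol from the deposited count table: Cp, Heph, Slc40a1, Tfrc, Slc11a2, Fth1, Ftl1 and Ireb2, 8 of 55536 genes. All 8 passed the filter on low counts, as did 16125 genes in all. Cp was selected on a measured value, being among the genes with the smallest p between vectors in females in these same libraries. Its values in that comparison, in the averaged one and in the difference between the sexes are therefore given as a description and without a p-value. The same is done for the other 7 genes, which were chosen to go with it. For Cp the differences between the sexes within a vector, which use the same female libraries, also carry no p-value.

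The mice were C57BL/6J, an inbred laboratory strain. Pups received adeno-associated virus (AAV) serotype 6 once, intraperitoneally, on postnatal day 1, and ventricles were taken on postnatal day 56. The virus carried the human receptor (AAV_PGR) in PGR_F (females, 3 libraries, numbered 1, 2 and 4) and PGR_M (males, 3 libraries), and had no insert (AAV_Con) in Con_F (females, 4 libraries) and Con_M (males, 3 libraries). Every group had therefore received a virus, and there was no uninjected group among these samples. Nuclei were sorted for Pcm1, a protein that marks cardiomyocyte nuclei, and each library pooled 3 to 6 whole ventricles. The sources used here do not name the promoter that drove the insert, and the human insert was not measured. Nothing says that the libraries of a group came from separate litters, so p-values measure the spread between these pooled libraries, and fewer cells of a type and less RNA per cell cannot be told apart.

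Iron enters most cells bound to transferrin through the transferrin receptor Tfrc, and the transporter Slc11a2 (DMT1) carries ferrous iron across membranes, including those of endosomes. Surplus iron is stored in ferritin, a shell of heavy (Fth1) and light (Ftl1) chains, or leaves through ferroportin (Slc40a1), the known cellular iron exporter, helped by the copper-dependent ferroxidases ceruloplasmin (Cp) and hephaestin (Heph), which oxidise ferrous iron so that transferrin can bind it. Iron regulatory proteins, one of them encoded by Ireb2, bind hairpins called iron-responsive elements in untranslated regions of mRNAs and so set translation or mRNA stability, and cardiomyocytes rely on both ferritin and ferroportin to handle the iron that their mitochondria and myoglobin need.

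Iron-responsive elements are shown because they are the sequence feature that ties several of these genes to Ireb2. The untranslated regions of GENCODE transcripts (GRCm38) were searched on the transcript strand for a bulged C, 5 paired bases, the loop CAGTGN and the 5 pairing bases, with G-U pairs allowed. Below, each element runs 5′ to 3′ with 5 bases on either side of the hairpin, and capitals mark the loop. The Tfrc elements lie in the 3′ UTR on the plus strand, at chr16:32631220-32631246, chr16:32631599-32631625, chr16:32631664-32631690 and chr16:32631711-32631737. The others lie in 5′ UTRs: Slc40a1 at chr1:45925466-45925492 on the minus strand, Fth1 at chr19:9982733-9982759 on the plus strand and Ftl1 at chr7:45459780-45459806 on the minus strand.
Tfrc element 1: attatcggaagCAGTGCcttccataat
Tfrc element 2: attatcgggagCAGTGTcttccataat
Tfrc element 3: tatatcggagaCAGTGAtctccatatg
Tfrc element 4: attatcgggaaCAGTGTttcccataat
Slc40a1 element: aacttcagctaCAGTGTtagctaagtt
Fth1 element: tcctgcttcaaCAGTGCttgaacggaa
Ftl1 element: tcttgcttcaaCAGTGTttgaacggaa

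The pattern was found in 4 of the 8 genes (50%), against 160 of 21877 protein-coding genes (0.731%). As the 8 genes were chosen for iron handling, which these elements serve, the high share follows largely from the choice. Of all these genes, 31 (0.142%) had it in a 5′ UTR and 129 (0.59%) in a 3′ UTR. Tfrc held 4 elements and the other 3 genes 1 each. The pattern was not found in Cp, Heph, Slc11a2 or Ireb2, which says only that these letters with this pairing are not in the annotated untranslated regions. A match is a description of the sequence, and binding was not measured.

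Total counts were 31.8 to 55.5 M in PGR_F, 45.3 to 57.9 M in PGR_M, 37.6 to 58.9 M in Con_F and 33.3 to 86.3 M in Con_M, where M stands for 1e6 reads. Markers of cardiomyocytes (10 of 10 genes tested) summed to between 76619 and 95785 counts per M (CPM, scaled for library composition) over the 13 libraries. The largest parts of this sum were Ttn, Ryr2 and Myh6, which averaged 48381, 18809 and 11374 CPM. CPM is not divided by gene length, so sums of different lists do not measure shares of cells. In the highest library of each list, summed markers of endothelium reached 81.3 CPM, of fibroblasts 141 CPM and of macrophages 37 CPM. Those of smooth muscle and pericytes reached 365 CPM, of glia 9.99 CPM and of epicardium 1.8 CPM. Most of the smooth muscle and pericyte sum was Abcc9, which averaged 285 CPM over the 13 libraries, while the next gene, Cspg4, averaged 18.9 CPM. Con_F 4 stood apart from the other 6 female libraries in Y-linked counts, with 1.01% of the mean male level against 0.0112 to 0.112%, and results that rest on it are also given without it.

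Ftl1 had the highest level per length and Heph the lowest. Over the 13 libraries Ftl1 averaged 5.55 ± 1.11 CPM per kb of counted interval, Fth1 3.24 ± 0.602, Tfrc 2.61 ± 0.396, Slc11a2 1.11 ± 0.087, Cp 0.968 ± 0.213, Ireb2 0.835 ± 0.0672, Slc40a1 0.453 ± 0.14 and Heph 0.00755 ± 0.0022 CPM per kb (SD, n = 13). The ferritin chains and the transferrin receptor stood above 90% of tested genes, at the 97.2, 93.4 and 91.1 percentiles, and Heph stood at the 5.33 percentile. Some neighbours in this order did not separate. Slc11a2 was above Cp in 7 of the 13 libraries and Cp above Ireb2 in 9, while Fth1 was above Tfrc in 11 and every other gene of the order was above the next in all 13. The counted interval holds introns as well as exons, and exons made up 77.1% of it for Fth1 and 69% for Ftl1 but 6.43% for Heph, so this order compares genes whose intervals differ in make-up.

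**Figure D1:**
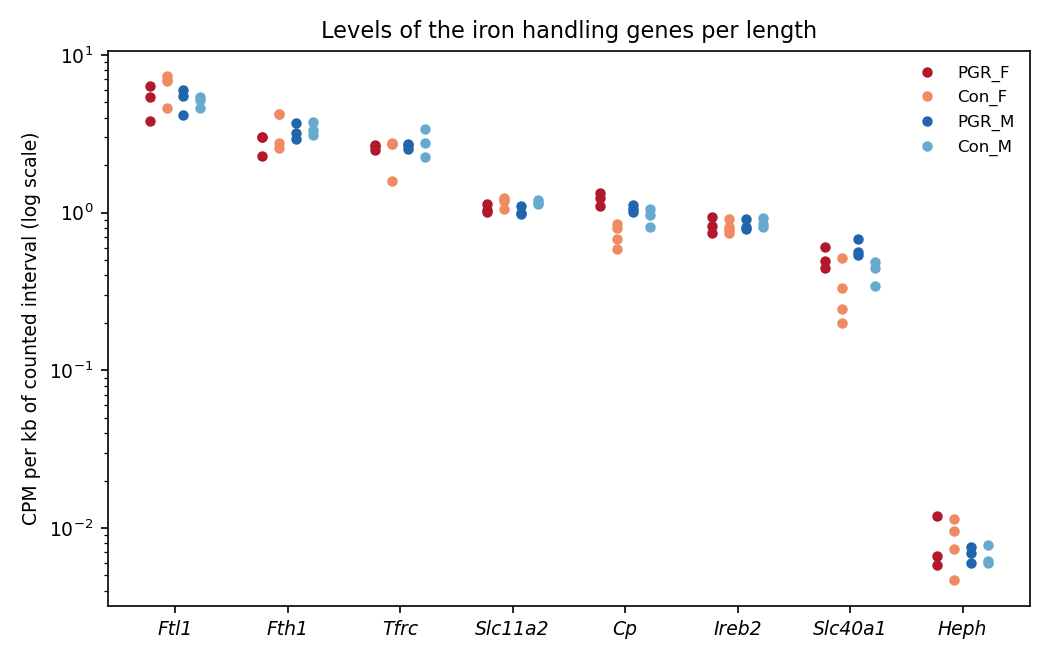
Levels of the 8 genes in each of the 13 libraries, as CPM per kb of counted interval on a log axis, with the groups side by side in the order PGR_F, Con_F, PGR_M, Con_M. The libraries of Ftl1 lie between 3.81 and 7.35 CPM per kb and those of Heph between 0.00465 and 0.012, and the points of Slc11a2, Cp and Ireb2 overlap.

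Cp, the ferroxidase of blood plasma that also exists in a form tethered to the cell membrane, had its highest group mean in PGR_F and its lowest in Con_F. It is the gene ENSMUSG00000003617 on chromosome 3, 19957054 to 20009145, plus strand (GRCm38, as for all genes here). Cp had 63.9, 69.5 and 57.1 CPM in PGR_F libraries 1, 2 and 4, against 41.7, 44.3, 35.6 and 30.7 CPM in Con_F libraries 1 to 4. It had 57.6, 54.4 and 52.8 CPM in PGR_M libraries 1 to 3, against 50.6, 42.1 and 55.2 CPM in Con_M libraries 1 to 3. The female groups did not overlap, the male groups did, and of the 6 libraries that received the receptor 4 were above all 7 control libraries.

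Group means of Cp were 63.5 ± 6.24 CPM in PGR_F, against 38.1 ± 6.14 in Con_F, and 55.0 ± 2.43 in PGR_M, against 49.3 ± 6.63 in Con_M (SD, n = 3, 4, 3 and 3). The log2 fold change was 0.74 (SE 0.12) in females, or 1.67-fold, and 0.45 (SE 0.09) averaged over the sexes. Without Con_F 4, which had the lowest Cp value, it was 0.65 in females and 0.40 averaged. In males it was 0.16 (SE 0.13), with an adjusted p of 0.825 in edgeR's quasi-likelihood test, and it was 0.06 without Con_M 2 and 0.25 without Con_M 3. The female effect minus the male effect was 0.58 (SE 0.18) on the log2 scale.

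Cp means also lay apart between the sexes of the control groups. Under the empty vector the log2 difference of Con_F over Con_M was -0.37 (SE 0.12), or -0.28 without Con_F 4, and the ranges met between 42.1 and 44.3 CPM. Under the receptor, PGR_F over PGR_M was 0.21 (SE 0.13), and the ranges also met. These comparisons use the same libraries as the vector comparisons above, so they are not separate evidence.

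The counted interval of Cp shares 13201 bases with Hps3, which encodes a subunit of a complex that forms lysosome-related organelles and lies on the opposite strand (chromosome 3, 19995945 to 20035315). Hps3 was singled out for its position and after its values were seen. Hps3 averaged 23.0 ± 1.32 CPM in PGR_F, against 19.4 ± 1.44 in Con_F, and 22.4 ± 1.06 in PGR_M, against 20.2 ± 0.237 in Con_M (SD, n = 3, 4, 3 and 3). All 6 receptor libraries, at 21.5 CPM or more, were above all 7 control libraries, at 20.8 CPM or less. Of all tested genes, 0.62% separated these libraries in either direction. As Hps3 was named after its values were seen, nothing is read from its separation. Its log2 fold change was 0.25 (SE 0.08) in females and 0.15 (SE 0.08) in males. The library kit keeps the strand, and the name of the deposited table holds the abbreviation strrev, which the sources used here do not spell out. The part of Hps3 reads in the Cp counts was not tested.

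The promoter of Cp is shown because Cp is the gene the others were chosen to go with and the vector encodes a DNA-binding receptor. The RefSeq window (GRCm38.p6, chr3:19956804-19957103, plus strand) runs from 250 bases before the start site to 50 bases after it. Capitals mark a match to AGAACA, a short motif that progesterone and glucocorticoid receptors share.
Cp promoter: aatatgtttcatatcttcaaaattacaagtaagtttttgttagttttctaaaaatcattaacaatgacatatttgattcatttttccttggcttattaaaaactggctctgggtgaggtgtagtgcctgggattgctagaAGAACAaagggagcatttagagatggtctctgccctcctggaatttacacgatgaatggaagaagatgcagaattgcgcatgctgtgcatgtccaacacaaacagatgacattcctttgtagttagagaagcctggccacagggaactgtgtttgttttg
The window holds 1 AGAACA, which begins 110 bases before the start site. It holds no match to the full palindromic element of those receptors, no hypoxia response core ACGTGC and no antioxidant response core TGACNNNGC, searched on both strands. AGAACA can overlap the start of a full element. Among 32851 RefSeq promoters of the same length, 19% held AGAACA, 0.475% the full element, 5.91% the hypoxia core and 12.4% the antioxidant core. A second RefSeq window of Cp held none of the 4 motifs. RefSeq windows were matched for 5 of the 8 genes. The window of Ireb2 held 1 AGAACA, both windows of Tfrc held 1 hypoxia core at the same site, and those of Fth1 and Ftl1 none of the 4 motifs. No match says only that the letters are not in these windows.

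Markers of other cell types are given beside Cp because liver and other cells make it. Summed hepatocyte markers were 0.171 to 0.551 CPM over all 13 libraries, with Serpina1a at 0 counts. Summed endothelial markers had a median of 64.6 CPM in PGR_F, against 75.6 CPM in Con_F, and 58.8 CPM in PGR_M, against 43.9 CPM in Con_M. In females 0 of 11 endothelial markers had a log2 fold change above 0 and in males 10 of 11 did. Their part in the Cp values was not tested.

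Heph, the membrane-bound ferroxidase best known from the gut, had few counts in these nuclei. It is the gene ENSMUSG00000031209 on chromosome X, 96455359 to 96574485, plus strand. Its counts were 46, 39 and 41 reads in PGR_F, against 32, 58, 48 and 33 in Con_F, and 48, 42 and 35 in PGR_M, against 61, 26 and 30 in Con_M. On the CPM scale these were 0.698 to 1.43 in PGR_F, against 0.554 to 1.35 in Con_F, and 0.719 to 0.904 in PGR_M, against 0.711 to 0.934 in Con_M, so the groups overlapped in both sexes. The log2 fold change was -0.04 (SE 0.30) in females and 0.06 (SE 0.33) in males (adjusted p = 0.98, edgeR). Among the 8 genes Heph had the largest SE in both comparisons.

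Slc40a1, the iron exporter ferroportin, had higher means with the receptor in both sexes. It is the gene ENSMUSG00000025993 on chromosome 1, 45908068 to 45926523, minus strand. Slc40a1 had 8.17, 9.16 and 11.2 CPM in PGR_F libraries, against 3.69, 6.14, 4.50 and 9.49 CPM in Con_F libraries. It had 10.4, 9.94 and 12.6 CPM in PGR_M libraries, against 6.34, 8.20 and 8.93 CPM in Con_M libraries. In females the groups overlapped through Con_F 4, at 9.49 CPM, and in males they did not overlap.

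The Slc40a1 log2 fold change was 0.69 (SE 0.26) in females, or 1.62-fold, and 0.59 (SE 0.19) averaged over the sexes. Without Con_F 4 the female value was 1.01 and the averaged value 0.75, while without Con_F 1 the female value was 0.52. In males it was 0.50 (SE 0.28), with an unadjusted p of 0.098 and an adjusted p of 0.725 in edgeR's quasi-likelihood test. The female effect minus the male effect was 0.20 (SE 0.38), with 0.51 when Con_F 4 was left out and 0.01 when Con_F 1 was. Macrophages are known for high ferroportin, and their 11 summed markers had medians of 33.6 CPM in PGR_F, against 29.3 CPM in Con_F, and 29.3 CPM in PGR_M, against 26.0 CPM in Con_M. Log2 fold changes were above 0 for 7 of these 11 markers in females (median 0.15) and 9 of 11 in males (median 0.33), and their part in the Slc40a1 values was not tested.

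**Figure D2:**
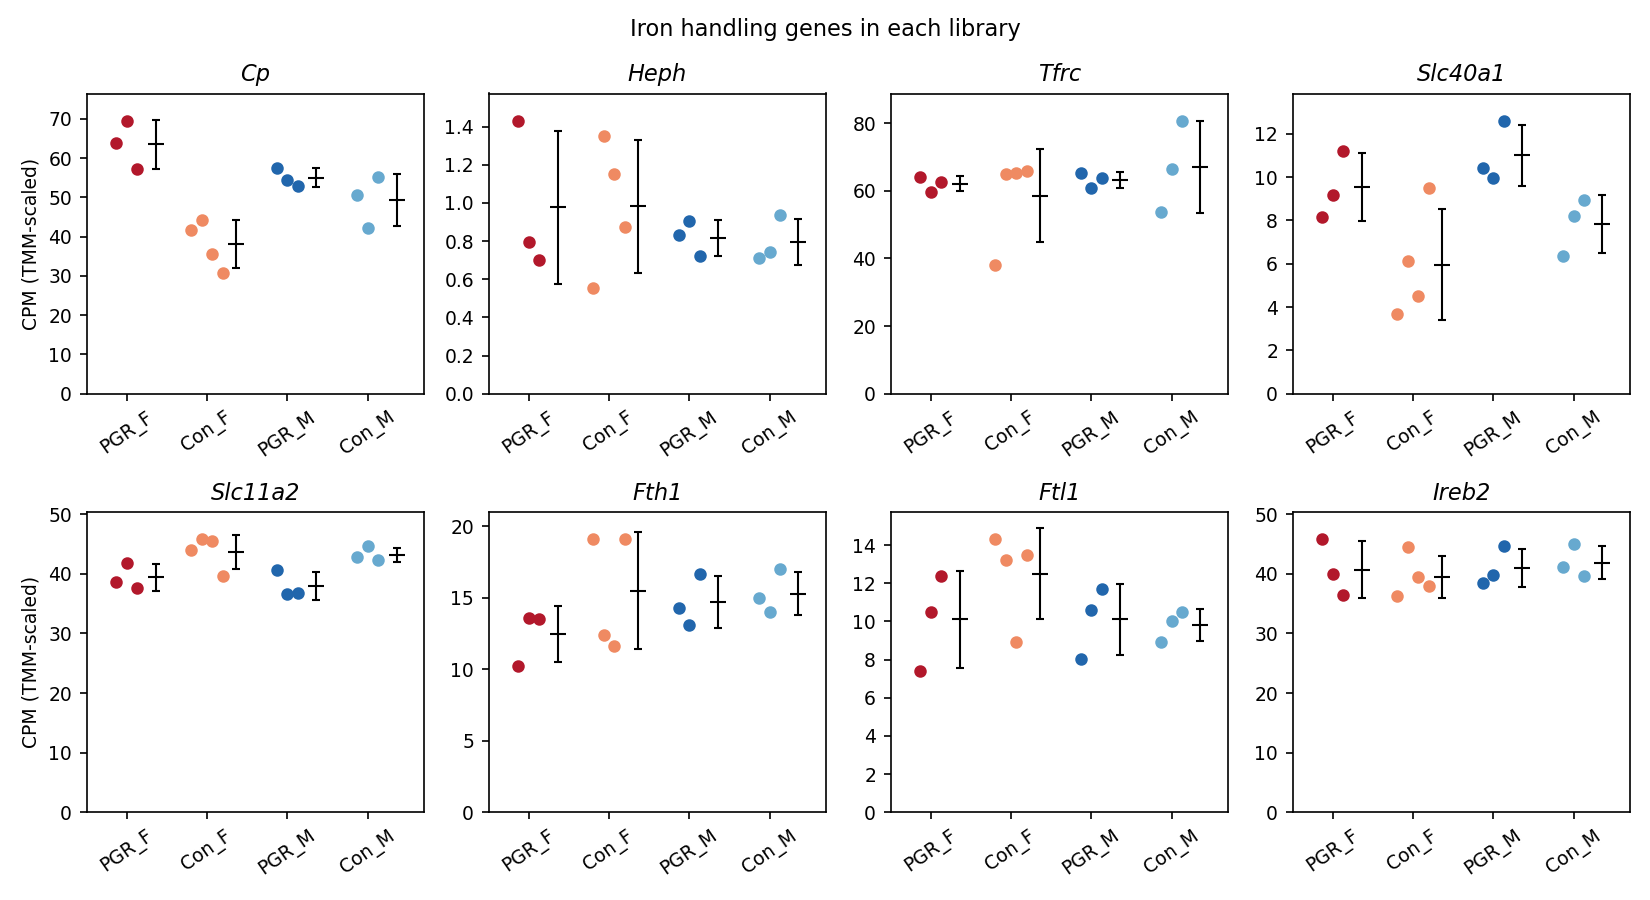
CPM of each gene in every library (points, in library order from left to right within a group) with the group mean and SD to the right of the points (n = 3 in PGR_F, 4 in Con_F, 3 in PGR_M and 3 in Con_M); each panel has its own axis, starting at 0. The PGR_F points of Cp lie above all Con_F points, the PGR_M points of Slc40a1 lie above and those of Slc11a2 below all Con_M points, and 1 Con_F library of Tfrc lies at 38.0 CPM, far under the other 3.

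Tfrc, the receptor that takes up transferrin-bound iron, had group means between 58.6 and 66.9 CPM, with 1 low library among the control females. It is the gene ENSMUSG00000022797 on chromosome 16, 32608920 to 32632794, plus strand. Tfrc had 64.0, 59.6 and 62.7 CPM in PGR_F libraries, against 38.0, 64.9, 65.4 and 65.8 CPM in Con_F libraries. It had 65.4, 60.7 and 63.8 CPM in PGR_M libraries, against 53.6, 66.4 and 80.7 CPM in Con_M libraries. Control libraries held both the highest and the lowest values of Tfrc, and the SD was 2.25 CPM in PGR_F, against 13.7 CPM in Con_F, and 2.4 CPM in PGR_M, against 13.6 CPM in Con_M. The log2 fold change was 0.09 (SE 0.17) in females and -0.08 (SE 0.18) in males (adjusted p = 0.955, edgeR). Without Con_F 1 the female value was -0.07, so its sign rested on that library.

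Slc11a2, the ferrous iron transporter DMT1, had slightly lower means with the receptor in both sexes. It is the gene ENSMUSG00000023030 on chromosome 15, 100387898 to 100425072, minus strand. Slc11a2 had 38.6, 41.9 and 37.6 CPM in PGR_F libraries, against 44.0, 45.8, 45.5 and 39.6 CPM in Con_F libraries. It had 40.7, 36.6 and 36.8 CPM in PGR_M libraries, against 42.8, 44.6 and 42.3 CPM in Con_M libraries. All PGR_M libraries were below all Con_M libraries, and in females Con_F 4, at 39.6 CPM, lay within the PGR_F range. The log2 fold change was -0.15 (SE 0.08) in females, -0.17 (SE 0.06) averaged and -0.18 (SE 0.08) in males, where the unadjusted p was 0.0373 and the adjusted p 0.634 in edgeR's quasi-likelihood test. Without Con_F 4 the Slc11a2 value was -0.20 in females and -0.19 averaged.

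Fth1 and Ftl1, the heavy and light chains of ferritin, had lower means in PGR_F than in Con_F, within the spread of the libraries. Fth1 (ENSMUSG00000024661, chromosome 19, 9980598 to 9985098, plus strand) had 10.2, 13.6 and 13.5 CPM in PGR_F libraries, against 19.1, 12.4, 11.6 and 19.1 CPM in Con_F libraries. Ftl1 (ENSMUSG00000050708, chromosome 7, 45457944 to 45459884, minus strand) had 7.39, 10.5 and 12.4 CPM in PGR_F libraries, against 14.3, 13.2, 8.92 and 13.5 CPM in Con_F libraries. For both chains the female groups overlapped. The female log2 fold changes were -0.31 (SE 0.18) for Fth1 and -0.30 (SE 0.19) for Ftl1, and without Con_F 4 they were -0.20 and -0.26. With single libraries left out they ranged from -0.43 (Con_F 3) to -0.20 (PGR_F 1) for Fth1 and from -0.48 (PGR_F 4) to -0.13 (PGR_F 1) for Ftl1.

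In males Fth1 had 14.3, 13.1 and 16.7 CPM in PGR_M libraries, against 15, 14 and 17 CPM in Con_M libraries. Ftl1 had 8.03, 10.6 and 11.7 CPM in PGR_M libraries, against 8.90, 10 and 10.5 CPM in Con_M libraries. Both overlapped, with log2 fold changes of -0.06 (SE 0.19, adjusted p = 0.968) for Fth1 and 0.04 (SE 0.20, adjusted p = 0.977) for Ftl1 in edgeR's test. Red cell precursors hold much ferritin, and summed erythroid markers were 3.9, 5.14 and 5.07 CPM in PGR_F libraries 1, 2 and 4, against 7.19, 2.94, 3.28 and 7.17 CPM in Con_F libraries 1 to 4. In males the sums were 5.8, 6.45 and 8.83 CPM in PGR_M libraries 1 to 3, against 6.94, 6.55 and 6.79 CPM in Con_M libraries 1 to 3. In both sexes the groups overlapped in these sums, and their part in the ferritin values was not tested. Ferritin genes have processed copies in the genome, of which Ftl1-ps1 had 0 to 2 counts and Ftl1-ps2, Ftl2-ps, Fth-ps2 and Fth-ps3 had 0, and the counts do not separate reads that copies share.

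Ireb2, the iron regulatory protein that is itself degraded when iron is plentiful, had group means between 39.5 and 41.9 CPM. It is the gene ENSMUSG00000032293 on chromosome 9, 54863789 to 54912530, plus strand. Ireb2 had 45.8, 40.0 and 36.4 CPM in PGR_F libraries, against 36.3, 44.5, 39.5 and 37.9 CPM in Con_F libraries. It had 38.5, 39.8 and 44.7 CPM in PGR_M libraries, against 41.1, 45.0 and 39.7 CPM in Con_M libraries. The groups overlapped in both sexes, with log2 fold changes of 0.04 (SE 0.09) in females and -0.03 (SE 0.10) in males (adjusted p = 0.965, edgeR). The protein was not measured.

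**Figure D3:**
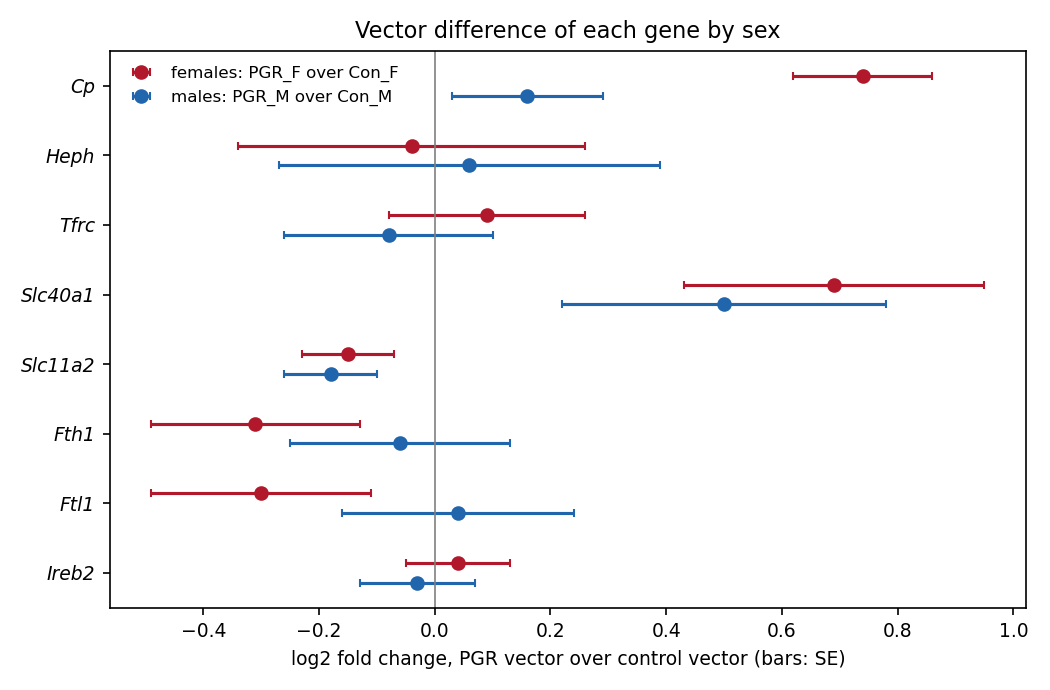
Log2 fold change of each gene, PGR vector over control vector, in females (upper point of each pair) and males (lower point), with bars of 1 SE. Cp lies at 0.74 in females and 0.16 in males, Slc40a1 at 0.69 and 0.50, Slc11a2 at -0.15 and -0.18, and the bars of Heph, Tfrc and Ireb2 cross 0 in both sexes.

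Across the 8 genes, 0 passed an adjusted p of 0.05 in any of the 6 comparisons in edgeR or limma-voom. In DESeq2 the counts were 1 of 8 in females, where 81 genes in all passed, and 2 of 8 averaged over the sexes, where 334 did. In edgeR without Con_F 4 they were 1 of 8 in females, where 20 genes in all passed, and 2 of 8 averaged, where 338 did. Cp is among the genes counted in each, and since it was selected on the female difference nothing is read from these counts. With all libraries in edgeR 0% of the 16125 tested genes passed for the vector in females, 0% for the vector in males, 0.0062% for the vector averaged over the sexes, 0% for the female minus the male vector effect, 0.143% for sex under the receptor and 0.229% for sex under the empty vector. At an unadjusted p under 0.05, the members past it were 1 of 8 for the vector in males, where 7.48% of all tested genes were. The other comparisons bear on the choice of the genes or share its female libraries, and nothing is read from their counts. These were 2 of 8 in females, beside 10.9% of all genes, 3 of 8 averaged, beside 14.8%, and 1 of 8 for the female minus the male effect, beside 3.26%. For sex they were 0 of 8 under the receptor, beside 7.25%, and 1 of 8, Cp, under the empty vector, beside 12.4%.

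Groups that did not overlap were counted for the 8 genes beside all tested genes. In females 1 of 8 was higher in every PGR_F library than in every Con_F library, namely Cp, which was selected on this difference, beside 4.17% of all tested genes, and 0 of 8 were lower, beside 4.07%. In males 1 of 8 was higher, Slc40a1, beside 7.2%, and 1 of 8 was lower, Slc11a2, beside 8.48%. With the sexes together 0 of 8 separated in either direction, beside 0.62% of all genes. Between the sexes 0 of 8 separated under the receptor, beside 13.7%, and 0 of 8 under the empty vector, beside 11.3%. Leaving out Con_F 4, a setting added after the values were seen, gave 2 of 8 higher in females (Cp and Slc40a1), beside 9.38% of all genes, and 1 of 8 lower (Slc11a2), beside 8.97%. With the sexes together it gave 1 of 8 lower (Slc11a2), beside 0.98%, and 0 of 8 higher, beside 0.738%. Between Con_F and Con_M it gave 1 of 8 lower (Slc40a1), beside 10.1%.

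The sex differences of the other 7 genes did not pass the test. These comparisons use the female libraries on which Cp was selected, and the 7 genes were chosen to go with it, so nothing further is read from them. Under the receptor the log2 differences of PGR_F over PGR_M lay between -0.23 (Fth1, SE 0.19) and 0.21 (Heph, SE 0.32), with adjusted p-values of 0.877 to 0.999 in edgeR's test. Under the empty vector, Con_F over Con_M lay between -0.39 (Slc40a1, SE 0.26) and 0.35 (Ftl1, SE 0.19), with adjusted p-values of 0.465 to 0.974. Without Con_F 4 the Slc40a1 value was -0.71 (adjusted p = 0.122, edgeR), and without Con_F 1 it was -0.22. Slc40a1 averaged 5.95 ± 2.57 CPM in Con_F and 7.82 ± 1.34 CPM in Con_M (SD, n = 4 and 3), and Ftl1 12.5 ± 2.4 and 9.82 ± 0.831 CPM in the same groups. Slc11a2, at 43.7 ± 2.87 CPM in Con_F and 43.2 ± 1.19 CPM in Con_M, was within 0.02 of 0 on the log2 scale.

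The 8 genes sit among 113 genes of 9 lists for iron, heme, copper and acute-phase proteins, of which 110 were in the table and 85 were tested. By edgeR 0 of the 85 passed an adjusted p of 0.05 in any of the 6 comparisons. At an unadjusted p under 0.05 there were 8 in females, beside 10.9% of all tested genes. There were 11 in males, beside 7.48%, and 18 averaged, beside 14.8%. The 85 include the 8 genes, with Cp among them, so nothing is read from these counts. By limma-voom 0 passed, and by DESeq2 1 in females and 2 averaged, all of them among the 8 genes and counted above. For the vector in females 39 of 85 had a log2 fold change above 0 (median -0.04), in males 41 of 85 (median 0.00) and averaged 43 of 85 (median 0.00). Over all tested genes the shares above 0 were 50.7% in females, 50.1% in males and 51% averaged, with a median of 0.00 in each. From each list below, up to 3 genes besides the 8 are named, those with the smallest p in the averaged comparison.

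The export list and the storage list had only 5 tested genes each, and none passed the edgeR test. The export and ferroxidase list, which holds Cp, Heph and Slc40a1, was above 0 for 4 of 5 tested genes in females (median 0.32). In males it was 5 of 5 (median 0.16), and the shares of all tested genes were 50.7% in females and 50.1% in males. Its other tested genes were Abcg2, an efflux pump that carries heme precursors among other substrates, with an averaged log2 fold change of 0.30 (SE 0.10, adjusted p = 0.197), and the heme exporter Flvcr1, with 0.04 (SE 0.06, adjusted p = 0.814, edgeR). Abcg2 averaged 30.3 ± 4.95 CPM in PGR_F, against 24.2 ± 3.83 in Con_F, and 34.1 ± 3.11 in PGR_M, against 28.2 ± 3.31 in Con_M (SD, n = 3, 4, 3 and 3). The male count of 5 includes Flvcr1 at 0.00 (SE 0.09) and Heph at 0.06 (SE 0.33). Because 3 of these 5 genes were chosen with results of these libraries known, the direction of the list is not independent evidence.

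The storage and chaperone list, which holds Fth1 and Ftl1, was above 0 for 0 of 5 tested genes in females (median -0.17). In males it was 1 of 5 (median -0.21), and the shares of all tested genes were 50.7% in females and 50.1% in males. Fth1 and Ftl1 were chosen with results of these libraries known, so the direction of this list is not independent evidence either. Ncoa4, the cargo receptor that delivers ferritin for degradation, had an averaged log2 fold change of -0.23 (SE 0.08, adjusted p = 0.186, edgeR). It averaged 15.5 ± 1.27 CPM in PGR_F, against 17.1 ± 2.07 in Con_F, and 15 ± 0.573 in PGR_M, against 18.8 ± 1.74 in Con_M (SD, n = 3, 4, 3 and 3). The iron chaperones Pcbp2 and Pcbp1 had -0.15 (SE 0.06, adjusted p = 0.226) and -0.20 (SE 0.17, adjusted p = 0.628, edgeR).

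In the uptake list 5 of 12 tested genes were above 0 in females and 7 of 12 in males. The zinc and iron transporters Slc39a8 and Slc39a14 had averaged log2 fold changes of 0.61 (SE 0.24, adjusted p = 0.272) and -0.26 (SE 0.10, adjusted p = 0.279), and the metalloreductase Steap4 0.32 (SE 0.21, adjusted p = 0.496, edgeR). Transferrin itself, Trf, was listed at 0 counts in every library. No other listed gene on its strand held its whole interval, and partial overlaps were not checked. How the counting treated overlapping genes is not spelled out, and the cause of the 0 was not tested. The list of iron regulatory proteins was above 0 for 3 of 3 genes in females (median 0.14) and 0 of 3 in males (median 0.00). The male values were 0.00 (SE 0.10) for Aco1, 0.00 (SE 0.10) for Fbxl5 and -0.03 (SE 0.10) for Ireb2, so their signs carry no weight. Averaged log2 values were 0.07 (SE 0.07) for Aco1, which encodes the other iron regulatory protein. They were 0.07 (SE 0.07) for Fbxl5, the ubiquitin ligase subunit that targets Ireb2 protein.

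In the list of mitochondrial iron use 9 of 23 genes were above 0 in females (median -0.09) and 8 of 23 in males (median -0.03). Averaged it was 10 of 23 (median -0.03). The shares of all tested genes above 0 were 50.7% in females, 50.1% in males and 51% averaged. Picked for the smallest p in the averaged comparison, Bola3, Cisd1 and Hspa9 take part in iron-sulfur cluster assembly or carry such clusters. Their averaged log2 fold changes were -0.24 (SE 0.08), -0.19 (SE 0.08) and -0.21 (SE 0.08), with adjusted p-values of 0.2, 0.274 and 0.277 by edgeR. In the heme list, 5 of 15 in females and 7 of 15 in males were above 0. Hmox2, the constitutive heme oxygenase, had -0.20 (SE 0.07, adjusted p = 0.186), the mitochondrial transporter Abcb10 -0.15 (SE 0.07, adjusted p = 0.314) and the synthesis enzyme Urod 0.19 (SE 0.11, adjusted p = 0.422, edgeR).

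Copper is loaded onto Cp protein in the secretory pathway, and the copper list was above 0 for 6 of 11 tested genes in females and 5 of 11 in males (medians 0.00 and -0.03). Its copper chaperone Atox1 had an averaged log2 fold change of 0.25 (SE 0.10, adjusted p = 0.274), and the cytochrome oxidase assembly factors Sco1 and Cox11 had -0.16 (SE 0.08, adjusted p = 0.328) and -0.13 (SE 0.07, adjusted p = 0.39, edgeR). Cp is also an acute-phase protein of the liver, and 3 of 15 genes of the acute-phase list had enough counts to test, with 2 of 3 above 0 in females and 3 of 3 in males. These were Itih4 at 0.26 (SE 0.24), C3 at 0.31 (SE 0.33) and Lbp at 0.00 (SE 0.30) averaged, with adjusted p-values of 0.639, 0.707 and 0.997 by edgeR. In the hepcidin and BMP list, 5 of 8 were above 0 in each sex, and Neo1, Hfe and Hfe2 had 0.16 (SE 0.07, adjusted p = 0.295), 0.19 (SE 0.11, adjusted p = 0.43) and 0.20 (SE 0.12, adjusted p = 0.461, edgeR). The hormone hepcidin itself, Hamp, had 56 counts over all 13 libraries and was not tested.

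**Figure D4:**
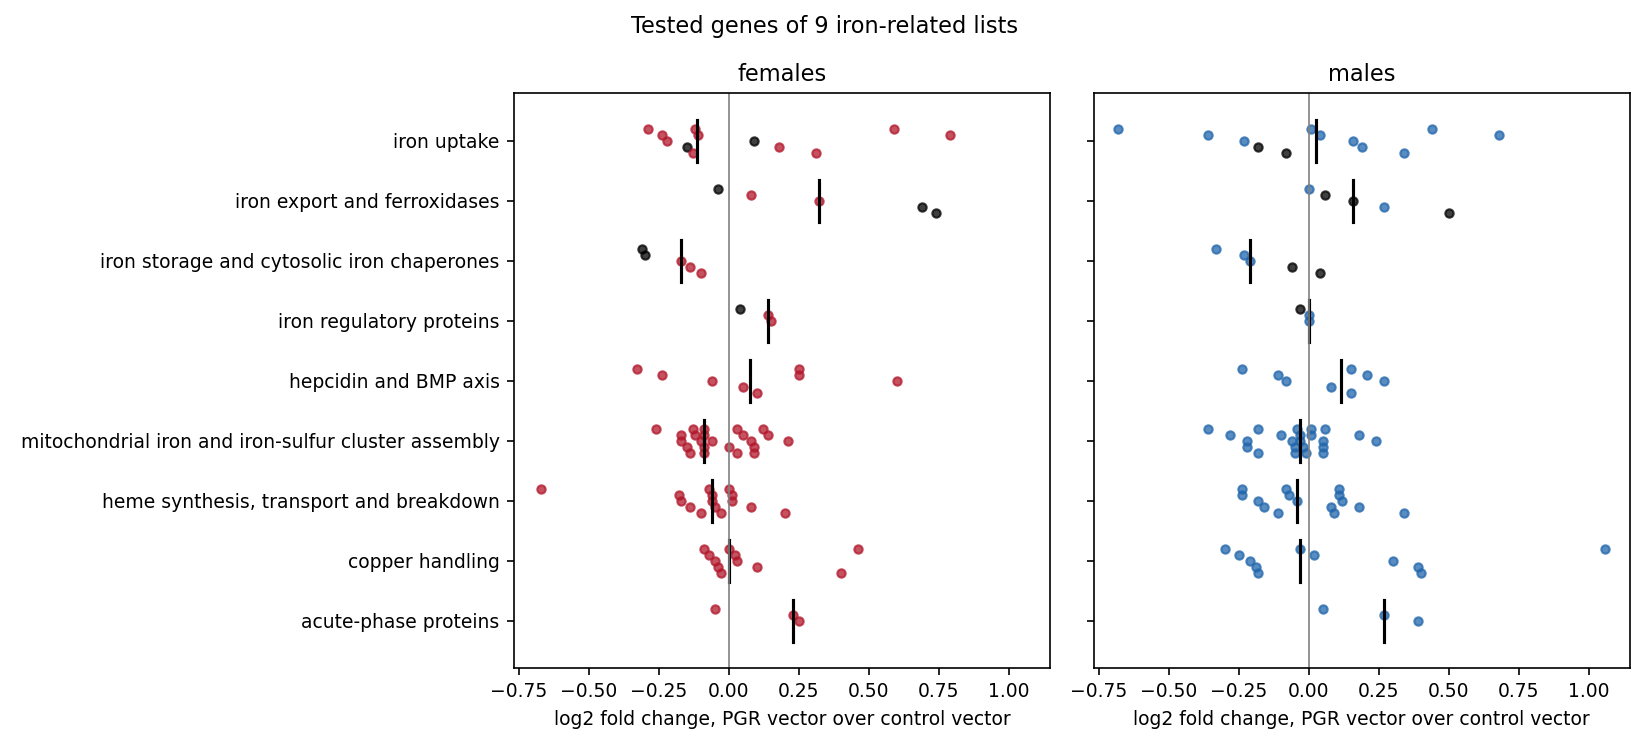
Log2 fold change, PGR vector over control vector, of the 85 tested genes of the 9 lists in females and males, with 1 point a gene, black points for the 8 genes described here and a vertical bar at each list's median. The export and ferroxidase medians lie at 0.32 in females and 0.16 in males and the storage and chaperone medians at -0.17 and -0.21, while the uptake, mitochondrial, heme and copper lists spread to both sides of 0 in both sexes.

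The genes most like Cp over the 13 libraries, by Pearson correlation of log2 CPM among 10041 genes, were Rerg (r = 0.87), Cfap300, Spata48, Ganc and Gatb (each r = 0.81). These values describe libraries that share their groups and depth, and the pattern includes the female vector difference by which Cp was picked. Rerg averaged 5.23 CPM in PGR_F, 4.58 in PGR_M, 4.08 in Con_F and 4.55 in Con_M, the same order of the female groups at a lower level. Gatb averaged 51.6 CPM in PGR_F, 50.3 in PGR_M, 43.9 in Con_F and 49.7 in Con_M. Among the other 7 iron genes, r with Cp was 0.46 for Slc40a1, 0.17 for Ireb2, 0.11 for Tfrc, 0.02 for Heph, -0.36 for Fth1, -0.41 for Ftl1 and -0.41 for Slc11a2.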

How the data were processed

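The authors deposited raw counts of reads per gene for 13 libraries. STAR 2.5.3a and featureCounts 1.5.0 were used, with the builds GRCm38 and mm10, per the submitters' processing notes, which give no roles. Per the file headers each gene has an interval and a length, which equalled end minus start plus 1 in all 55536 genes, so introns were counted too. The table was analysed whole, and a smaller deposited table (15645 genes whose mean count is 10 or more, 0 of them with other values) was an alternative. 0 columns of values were left out.

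Genes were kept with filterByExpr and scaled with TMM, and 4 group means were fitted to all libraries with edgeR 4.0.16 (quasi-likelihood, robust, R 4.3.3). Fold changes put the receptor over the empty vector, or females over males, with Benjamini-Hochberg adjustment over 16125 genes for each of 6 contrasts. Standard errors were derived from the F statistic (log2 value over its square root). CPM uses TMM-scaled totals. DESeq2 1.42.0, limma-voom (limma 3.58.1), other scaling, no filter, a block and leaving out libraries were alternatives. The edgeR script was tested on simulated counts.

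The 8 genes, the 9 iron-related lists and the 9 marker lists were chosen with earlier results of these data known. From each list the text names the 3 genes with the smallest p in the averaged vector comparison, besides the 8, and the 5 genes most like Cp with a mean log2 CPM of at least 1 (prior count 2). Replicates of a group differed beyond sampling noise, with a chi-square of 27.5 to 176 per degree of freedom over 15 pairs. Promoter windows come from RefSeq, and hairpins from GENCODE transcripts of GRCm38.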

Additional observations from a re-analysis of the deposited data

Results flagged for a closer look

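In the group of 4 Con_F libraries, 17 values (the CPM of the 8 genes and the summed CPM of 9 marker lists) were checked for 1 library far from the others, which chance alone gives in about 1 in 20 groups. Tfrc was flagged because Con_F 1, at 38.0 CPM, lay far below the other 3, at 64.9 to 65.8 CPM, with a gap of 0.968 of the whole range. The summed smooth muscle and pericyte markers were flagged because of Con_F 4. At 343 CPM it lay above the other 3, at 306 to 311 CPM, with a gap of 0.865 of the whole range. Abcc9 made up most of this sum, with a mean of 285 CPM over all libraries, and its part in the gap was not tested. The other groups have 3 libraries and were not checked.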

How the results depend on the processing

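Counts of genes past the threshold moved with the tool, the filter and single libraries. For the vector in females 0 genes passed, against 81 with DESeq2 and 25 without a count filter, and 0 to 20 with 1 library left out (20 without Con_F 4). In males 0 passed, against 29 and 12, and 0 to 3 (3 without PGR_M 2, 1 without Con_F 4). Averaged over the sexes 1 passed, against 334 with DESeq2, 146 without a filter and 2 with limma-voom, and 1 to 338 with 1 library left out (338 when Con_F 4 was left out, 34 for PGR_F 4, 4 for PGR_M 2 and 2 for either PGR_M 1 or Con_M 3). For the female minus the male vector effect 0 passed, against 1 with DESeq2 and 1 without a filter. For sex under the receptor 23 passed, against 80 and 51, and 10 to 44 (10 without PGR_F 1, 44 without Con_F 4). For sex under the empty vector 37 passed, against 224 and 131, and 14 to 99 (14 without Con_F 2 or 3, 99 without Con_M 1). The cause was not tested.

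Of the genes in the iron-related lists, 0 passed for the vector in females, against 1 (Cp) with DESeq2, without a filter and without Con_F 4, so 0 to 1 with 1 library left out. Averaged, 0 passed, against 2 (Cp and Slc40a1) with DESeq2, 1 (Cp) without a filter, and 0 to 2 (2 without Con_F 4, again Cp and Slc40a1). In these settings the Cp log2 fold change was 0.74, 0.73 and 0.65 in females and 0.45, 0.46 and 0.40 averaged, and that of Slc40a1 averaged was 0.59 with DESeq2 and 0.75 without Con_F 4.

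Over 48 values of the 8 genes, 912 alternatives gave 843 with the same direction and call and 8 that newly passed. The other 61 changed sign and were spread over 21 of the values. Each library was left out in turn for every comparison, also where it belonged to neither group compared. Such alternatives hardly move a value, so part of the 843 was largely fixed in advance. For example, the female Cp value was 0.73 or 0.74 with any male library left out. With 1 library left out, the female log2 fold change ranged from -0.39 to 0.16 for Heph, -0.07 to 0.15 for Tfrc and -0.06 to 0.11 for Ireb2. In males it ranged from -0.03 to 0.18 for Heph, -0.21 to 0.09 for Tfrc, -0.15 to 0.03 for Fth1, -0.07 to 0.19 for Ftl1 and -0.09 to 0.03 for Ireb2. Averaged, it ranged from -0.16 to 0.11 for Heph, -0.07 to 0.09 for Tfrc, -0.04 to 0.04 for Ireb2 and -0.18 to 0.15 for Lbp. Female minus male effects ranged from -0.45 to 0.10 for Heph, 0.00 to 0.30 for Tfrc, -0.01 to 0.08 for Slc11a2 and -0.02 to 0.14 for Ireb2. Sex differences under the receptor ranged from -0.14 to 0.41 for Heph, -0.06 to 0.00 for Tfrc, -0.17 to 0.18 for Ftl1 and -0.11 to 0.06 for Ireb2. Under the empty vector they ranged from -0.01 to 0.06 for Slc11a2 and -0.10 to 0.14 for Fth1. The Ftl1 sex difference under the receptor was 0.00 with DESeq2, and that of Fth1 under the empty vector was 0.00 with limma-voom.

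Replicate numbers are not stated to pair the libraries. Deviations from the group means of 16 same-numbered pairs correlated between -0.25 and 0.25, with 3 of them over 0.1. Of the 13 libraries, 5 correlated best with their own number. With 3 or 4 libraries a group, these correlations cannot decide whether the numbers mark a shared origin. With the replicate number as a block, 0 genes passed for the vector in females, 0 in males, 1 averaged and 0 for the difference, 35 for sex under the receptor and 25 for sex under the empty vector. The block turned the sign of Heph in females (0.04), Lbp averaged (-0.04), Ftl1 (-0.12) and Ireb2 (0.04) for sex under the receptor and Fth1 (-0.06) for sex under the empty vector.

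Heph had 26 to 61 counts a library, and each group had 3 or 4 pooled libraries, both of which limit precision.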
